A study of Mus musculus with 32 samples.

Results

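The glycolysis and hypoxia response genes examined here were 38 genes taken by symbol and not by a threshold on their values: 15 glycolytic enzymes, 6 transporters and regulators of glycolytic flux, 15 targets of the hypoxia-inducible factors (HIF) that lie outside glycolysis, and the 2 HIF alpha subunits Hif1a and Epas1. The list was chosen with earlier results of these data known. Its genes were taken from a table of 27843 genes for AML12, an immortalised mouse hepatocyte line, and a table of 55414 genes for HL-1, a mouse atrial cardiomyocyte line. The AML12 table listed 37 of the 38 members and the HL-1 table all 38. Slc2a3 was the member without a row in the AML12 table, and Ero1a, which that table names Ero1l, was joined by its Ensembl identifier. The symbol Aldoa stood on 2 identifiers, and the row of the annotated enzyme, ENSMUSG00000030695, was used.

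RNA-seq was run on 32 libraries in 8 groups of 4. AML12 cells had received DEX, the labels' abbreviation for the treatment, or the control treatment, and were collected at 17 h or 25 h. HL-1 cells had received AML12-derived medium in every group: conditioned medium (CM) from AML12 cells with DEX synchronization, or control medium from AML12 cells without it, and were collected at 16 h or 28 h. The series sets treated against control cells at both times, in a system of rhythmic communication between the 2 cell types. The sample titles give the hours, which the samples' descriptions and the column names write as ZT17, ZT25, ZT16 and ZT28. These labels do not explain ZT or name the event from which the hours are counted. Neither oxygen nor glucose levels were found in the sources at hand. No HL-1 group went without AML12 medium, and each cell type is represented by a single line. The labels number 4 replicates per group without saying that they were separate cultures, so the p-values measure the spread between these libraries, which may be technical.

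Glycolysis converts glucose to pyruvate in the cytosol, and lactate dehydrogenase then reduces pyruvate to lactate, which regenerates the NAD+ that the pathway needs when respiration is limited. HIF is a pair of an oxygen-labile alpha subunit with a stable partner. Prolyl hydroxylases of the Egln family mark the alpha subunit for degradation while oxygen is present, and when they slow down HIF binds DNA at a short core motif and raises the transcription of glycolytic enzymes, glucose transporters, angiogenic factors and its own hydroxylases. Hepatocytes and atrial myocytes both use this programme, the hepatocyte with a glycolysis that can be reversed into glucose production.

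Total counts were 15.0 to 17.5 M (mega) per AML12 library and 15.7 to 19.3 M per HL-1 library. HL-1 libraries of CM groups averaged 18.6 M at 16 h and 18.2 M at 28 h, against 16.3 and 16.6 M in their control groups. Levels are in CPM, counts scaled to library totals that TMM scaling has corrected for a few dominant genes, and 14114 AML12 and 14450 HL-1 genes with enough counts were tested with edgeR's quasi-likelihood test. Of the members, 37 were tested in each line: Epas1 failed the count filter in HL-1, where it averaged 0.243 to 0.399 CPM over the groups. In AML12, Hnf4a averaged 205 CPM and Apob 154 CPM, but the secreted hepatocyte proteins Alb and Ttr averaged 1.43 and 1.38 CPM and the bile duct keratin Krt19 averaged 1700.5 CPM. In HL-1, Des averaged 524 CPM and Gja1 466 CPM, and cardiac troponin T, Tnnt2, 34.5 CPM, but the sarcomere genes Myh6, Myh7, Actc1 and Actn2 averaged below 0.02 CPM over the 16 libraries, Pln was at 0 and the mesenchymal gene Vim averaged 6284 CPM. Of the 12 cardiomyocyte markers, 9 averaged under 1 CPM in each HL-1 group. Of the other fibroblast and mesenchymal markers in HL-1, Col3a1 averaged 1455, Col1a2 844, Col1a1 175, Pdgfra 52.0, Dcn 22.9 and Lum 0.014 CPM. The name of the line is that of the labels, and its identity was not tested. Some libraries stood apart from the rest of their group. Over pairs of libraries within a group, the chi-square per degree of freedom of the counts was 13.6 to 18.1 for pairs with AML12 DEX 17 h replicate 2, against 2.41 to 4.00 for the other pairs of that group, and 8.05 to 16.6 for pairs with HL-1 control 16 h replicate 3, against 2.73 to 5.58. It was 3.90 to 5.06 for pairs with AML12 DEX 25 h replicate 4, against 2.31 to 3.69. No 2 libraries were the same within sampling noise.

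Promoters of the members are shown because many of these genes are known as HIF targets, and HIF binding was not measured. RefSeq promoter sequences of build GRCm38.p6, from 250 bases before to 50 bases after a transcription start, were found for 35 of the 38 members, with 52 starts in all; Epas1, Ndrg1 and Slc2a3 had no entry. The core motif ACGTG or GCGTG, searched on both strands, was present in 40 of these 52 promoters, or 76.9%, against 43.8% of all 32851 promoters of the table. At least 1 promoter of 32 of the 35 genes held it, or 91.4%, against 46.7% of all 27025 genes counted the same way. The 3 genes without it in these windows were Eno2, Gpi1 and Tpi1. The palindrome CACGTG, which holds ACGTG on both strands and is also the binding motif of the circadian clock's E-box factors, was present in 5 of the 52 promoters, or 9.62%, against 7.15% of all. Many members were listed because they are known HIF targets, so their higher share is not an independent result. The comparison was not limited to expressed genes, nor matched for base composition or for the number of starts per gene. A match is a description of letters in the window and not evidence of binding. The 4 promoters printed here belong to the members with the smallest p, among those with an entry, in the HL-1 comparison of 28 h with 16 h in control medium. Capitals mark each match to the motif on either strand, where CACGT and CACGC are the reverse complements of ACGTG and GCGTG.

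Ero1a (chr14:45318523-45318822, minus strand): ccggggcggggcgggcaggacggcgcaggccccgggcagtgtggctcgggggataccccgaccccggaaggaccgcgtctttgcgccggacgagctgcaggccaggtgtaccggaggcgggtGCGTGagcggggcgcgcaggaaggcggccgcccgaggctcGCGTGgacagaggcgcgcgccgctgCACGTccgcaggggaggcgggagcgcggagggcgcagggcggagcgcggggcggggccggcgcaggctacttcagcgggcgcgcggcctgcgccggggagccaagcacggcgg
Pdk1 (chr2:71872974-71873273, plus strand): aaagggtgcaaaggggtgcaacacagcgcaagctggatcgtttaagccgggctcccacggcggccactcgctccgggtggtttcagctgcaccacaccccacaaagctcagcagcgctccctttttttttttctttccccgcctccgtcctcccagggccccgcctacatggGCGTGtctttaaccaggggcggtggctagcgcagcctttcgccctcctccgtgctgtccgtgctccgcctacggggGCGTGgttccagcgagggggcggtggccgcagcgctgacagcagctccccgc
Bnip3 (chr7:138909457-138909756, minus strand): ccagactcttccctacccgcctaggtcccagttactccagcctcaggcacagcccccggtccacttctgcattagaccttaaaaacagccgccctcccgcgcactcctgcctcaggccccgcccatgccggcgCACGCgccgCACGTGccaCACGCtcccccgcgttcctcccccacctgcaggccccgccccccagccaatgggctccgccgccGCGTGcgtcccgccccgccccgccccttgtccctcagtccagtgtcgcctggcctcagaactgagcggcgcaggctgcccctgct
Egln1 (chr8:124949205-124949504, minus strand): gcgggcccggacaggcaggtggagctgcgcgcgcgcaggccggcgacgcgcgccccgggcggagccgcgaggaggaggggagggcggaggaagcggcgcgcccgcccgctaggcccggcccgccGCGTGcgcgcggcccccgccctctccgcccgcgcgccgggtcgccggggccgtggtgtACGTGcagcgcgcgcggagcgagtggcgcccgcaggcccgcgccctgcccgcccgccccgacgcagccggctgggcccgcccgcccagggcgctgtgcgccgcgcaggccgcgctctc

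The Ero1a window held 3 matches, that of Bnip3 5, and those of Pdk1 and Egln1 2 each. In Bnip3 a CACGTG palindrome counts as 2 of the 5. Pdk1 has 2 starts in the table, of which the window with the lower coordinate is printed.

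The clearest pattern in the members was a rise in HL-1 cells between 16 h and 28 h. All 37 tested members were higher at 28 h in CM, and all 37 were also higher at 28 h in control medium, a comparison with no library in common. Of all 14450 genes tested, 32.6% rose and 32.9% fell in CM, and 31.5% rose and 31.3% fell in control medium (edgeR, Benjamini-Hochberg adjusted p under 0.05). No member fell in either medium, where the unadjusted p was under 0.05 for 0 members in that direction and DESeq2 also called 0. All 4 libraries at 28 h lay above all 4 at 16 h for each of the 37 members in both media, as they did for 28.8% of all genes in CM and 28.2% in control medium (29.4% and 27.6% lay below). The median log2 fold change of the members was 1.24 in CM and 1.32 in control medium, against -0.0045 and 0.001 for the median of all tested genes. The members were chosen with earlier results of these data known, so these contrasts with all genes are not those of an unselected list. In bulk RNA a larger share of cells expressing a gene and more RNA per cell cannot be told apart.

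**Figure D1:**
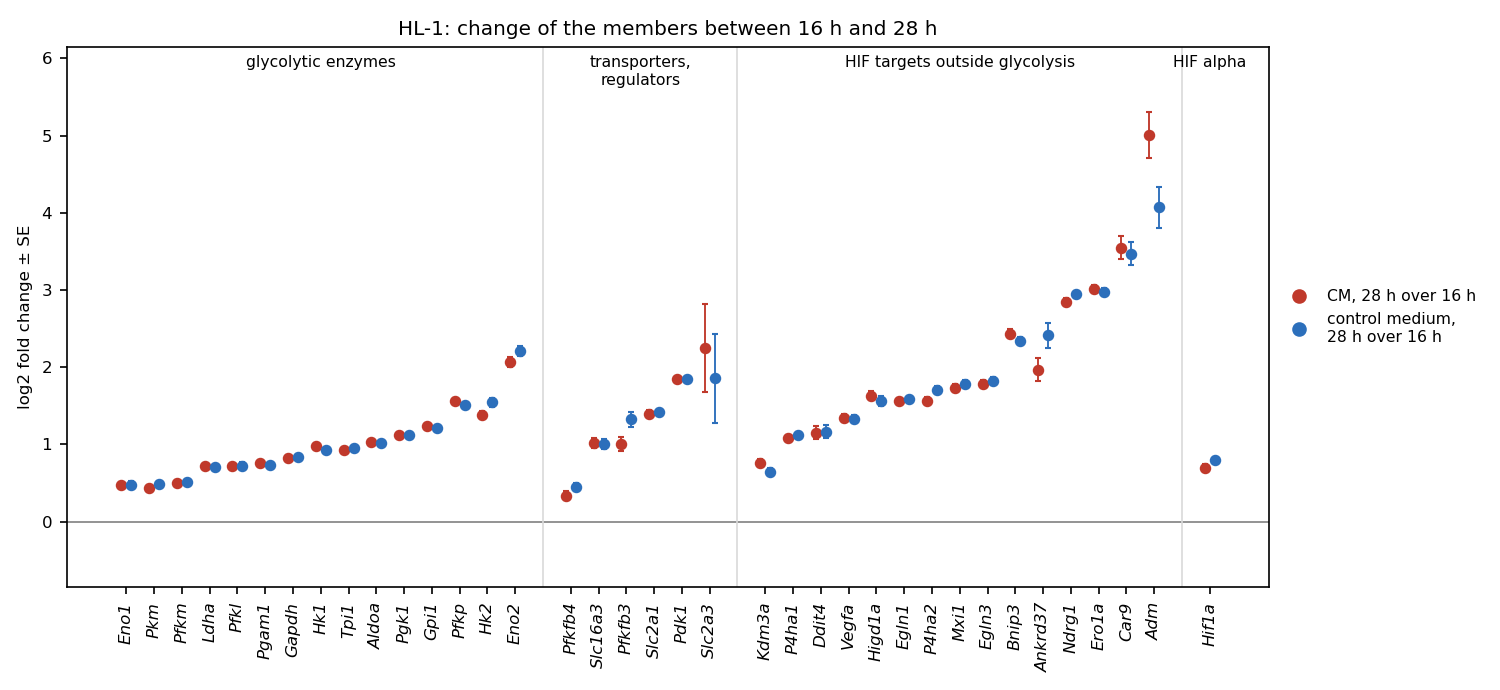
Change of the 37 tested members in HL-1 cells between 16 h and 28 h, as log2 fold change ± SE (vertical axis) per gene (horizontal axis, ordered within each class). Red points are CM and blue points control medium, from 4 libraries per group; every point lies above 0 and passed the adjusted p threshold, from 0.34 for Pfkfb4 to 5.00 for Adm in CM.

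The HIF targets outside glycolysis moved most. Their median log2 fold change was 1.73 in CM and 1.78 in control medium. Ndrg1, a cytoplasmic protein induced by several stresses, had 769.7, 702, 738 and 723 CPM at 28 h in CM, against 104, 94.5, 105 and 104 CPM at 16 h. In control medium Ndrg1 had 702, 776, 759 and 713 CPM at 28 h, against 96.4, 93.8, 103 and 90.6 CPM at 16 h. Each 28 h library thus stood far above each 16 h library, with log2 fold changes of 2.85 ± 0.047 in CM (edgeR adjusted p = 4.31e-24) and 2.94 ± 0.047 in control medium (adjusted p = 2.51e-24). Ero1a, the oxidase that drives disulfide formation in the endoplasmic reticulum, had 1625, 1424, 1693 and 1506 CPM at 28 h in CM, against 199, 174, 203 and 199 CPM at 16 h. Its control medium libraries had 1496, 1568, 1615 and 1513 CPM at 28 h, against 205, 195, 201 and 185 CPM at 16 h. The rise of Ero1a was 3.01 ± 0.054 log2 units in CM (edgeR adjusted p = 1.38e-23) and 2.98 ± 0.054 in control medium (adjusted p = 2.59e-23), and the ranges of the 2 media at 28 h overlapped.

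Bnip3, a receptor for the removal of mitochondria by autophagy, had 308, 273, 288 and 279.9 CPM at 28 h in CM, against 55.5, 47.8, 58.5 and 50.3 CPM at 16 h. With control medium its levels were 266, 283, 275 and 272 CPM at 28 h, against 56.7, 52.9, 56.6 and 49.9 CPM at 16 h. The log2 fold change was 2.44 ± 0.054 in CM (edgeR adjusted p = 6.28e-22) and 2.34 ± 0.055 in control medium (adjusted p = 2.27e-21). Egln1, the main prolyl hydroxylase that marks HIF alpha for degradation, had 278, 256, 263 and 262 CPM at 28 h in CM, against 91.5, 86.9, 91.3 and 88.2 CPM at 16 h. Control medium gave 249.8, 269, 255 and 262 CPM at 28 h, against 85.5, 83.3, 84.9 and 92.0 CPM at 16 h. Egln1 rose by 1.57 ± 0.039 log2 units in CM (edgeR adjusted p = 6.21e-21) and 1.58 ± 0.04 in control medium (adjusted p = 9.79e-21), and Egln3, its hypoxia-induced relative, by 1.79 ± 0.051 and 1.82 ± 0.051.

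The 3 members of this class with the largest fold changes or the lowest levels were Adm, Car9 and Ankrd37. Adm, the vasodilator peptide adrenomedullin, rested on few reads at 16 h: 12 counts over the 4 CM libraries and 23 over the 4 control medium libraries, against 394 and 401 at 28 h. Its fitted log2 fold changes of 5.00 ± 0.30 in CM and 4.07 ± 0.26 in control medium are accordingly the least precise of the class. Car9, a cell-surface carbonic anhydrase and a standard marker of hypoxic cells, averaged 16.3 ± 1.32 CPM at 28 h and 1.39 ± 0.368 CPM at 16 h in CM (SD, n = 4 each). In control medium the Car9 means were 15.0 ± 0.930 and 1.34 ± 0.413 CPM (SD, n = 4 each), and the rises were 3.55 ± 0.15 log2 units in CM and 3.47 ± 0.15 in control medium. Ankrd37, an ankyrin repeat protein, rose by 1.97 ± 0.15 log2 units in CM and 2.42 ± 0.16 in control medium.

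The other targets of the class rose as well. Vegfa, the main growth factor for blood vessels, rose by 1.34 ± 0.054 log2 units in CM and 1.33 ± 0.055 in control medium. P4ha1 and P4ha2 encode alternative catalytic subunits of collagen prolyl hydroxylase. P4ha2 rose by 1.57 ± 0.048 and 1.71 ± 0.049, and P4ha1 by 1.09 ± 0.033 and 1.12 ± 0.034. Mxi1, an antagonist of MYC, rose by 1.73 ± 0.05 and 1.78 ± 0.051, Higd1a, a mitochondrial inner membrane protein, by 1.63 ± 0.062 and 1.56 ± 0.063, and Ddit4, an inhibitor of the mTOR kinase complex, by 1.15 ± 0.086 and 1.16 ± 0.087. The smallest rise of the class was that of Kdm3a, a histone demethylase, at 0.76 ± 0.049 in CM and 0.65 ± 0.05 in control medium.

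All 15 glycolytic enzymes rose, and their summed level shows the size of the change in the pathway as a whole. The 15 enzymes together had 24594, 23862, 24901 and 24555 CPM at 28 h in CM, against 14172, 14253, 14184 and 14517 CPM at 16 h. In control medium they had 23339, 24424, 24341 and 24958 CPM at 28 h, against 13428, 13908, 14428 and 14529 CPM at 16 h. The ratio of the 28 h mean to the 16 h mean was 1.71 in CM and 1.72 in control medium, and the enzymes took 2.4% of the scaled counts at 28 h and 1.4% at 16 h in both media. By the same measure the 15 HIF targets outside glycolysis had ratios of 3.66 in CM and 3.71 in control medium.

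Going down the pathway, the hexokinases that trap glucose in the cell rose by 0.98 ± 0.035 (Hk1) and 1.38 ± 0.053 (Hk2) log2 units in CM and by 0.92 ± 0.035 and 1.54 ± 0.054 in control medium. Gpi1, phosphoglucose isomerase, rose by 1.24 ± 0.035 and 1.22 ± 0.035. The 3 phosphofructokinase subunits, which form the committed step, differed in size of response. Pfkp, the platelet-type subunit, had 385, 360.1, 403 and 374 CPM at 28 h in CM, against 132, 125, 131 and 128 CPM at 16 h. In control medium Pfkp had 356, 365, 367 and 371 CPM at 28 h, against 124, 125, 129 and 135 CPM at 16 h. It rose by 1.56 ± 0.039 log2 units in CM (edgeR adjusted p = 6.06e-21) and 1.51 ± 0.039 in control medium (adjusted p = 1.58e-20), while the liver subunit Pfkl rose by 0.72 ± 0.048 and 0.72 ± 0.048 and the muscle subunit Pfkm by 0.50 ± 0.039 and 0.51 ± 0.039. The ranges of the 28 h and 16 h libraries stayed apart for each subunit.

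The middle of the pathway moved by close to 1 log2 unit. Aldoa (aldolase) rose by 1.03 ± 0.037 in CM and 1.02 ± 0.038 in control medium, Tpi1 (triosephosphate isomerase) by 0.93 ± 0.037 and 0.95 ± 0.037, Gapdh by 0.82 ± 0.04 and 0.83 ± 0.04, Pgk1 (phosphoglycerate kinase) by 1.12 ± 0.038 and 1.12 ± 0.038, and Pgam1 (phosphoglycerate mutase) by 0.75 ± 0.046 and 0.73 ± 0.046. Gapdh, often used to normalise expression data, averaged 3947 ± 131 CPM at 28 h and 2236 ± 51.6 CPM at 16 h in CM (SD, n = 4 each). Gapdh averaged 3897 ± 183 CPM at 28 h and 2186 ± 100.5 CPM at 16 h in control medium (SD, n = 4 each).

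The enolases split by isoform. Eno2, known as the neuronal enolase, had 158, 145, 173 and 174 CPM at 28 h in CM, against 37.4, 37.8, 41.7 and 38.3 CPM at 16 h. In control medium Eno2 had 146, 141, 157 and 132 CPM at 28 h, against 29.0, 30.6, 35.0 and 30.3 CPM at 16 h. This was the largest change of any glycolytic enzyme, 2.07 ± 0.063 log2 units in CM and 2.21 ± 0.066 in control medium, while the ubiquitous form Eno1 rose by 0.47 ± 0.04 and 0.48 ± 0.04. Of the last steps, Pkm, pyruvate kinase, rose by 0.44 ± 0.035 and 0.49 ± 0.035, and Ldha, which makes lactate, by 0.72 ± 0.031 and 0.70 ± 0.031. Pkm held the smallest change of the enzymes in CM, and Eno1 the smallest in control medium. Many of these enzymes have near-identical processed pseudogenes in the mouse genome, so their counts depend on how reads with several matches were handled, which the sources used here do not give.

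Each of the 6 transporters and flux regulators rose as well. Pdk1, the kinase that inactivates pyruvate dehydrogenase and so limits the conversion of pyruvate to acetyl-CoA, had 477, 447, 461 and 467 CPM at 28 h in CM, against 135, 124, 131 and 127 CPM at 16 h. In control medium Pdk1 had 432, 445, 431 and 434 CPM at 28 h, against 119.7, 124, 118 and 120.2 CPM at 16 h. It rose by 1.84 ± 0.035 log2 units in CM (edgeR adjusted p = 3.27e-23) and 1.85 ± 0.036 in control medium (adjusted p = 4.48e-23). Slc2a1, the basal glucose transporter, rose by 1.40 ± 0.046 and 1.42 ± 0.046, and Slc16a3, the exporter of lactate in glycolytic cells, by 1.02 ± 0.064 and 1.01 ± 0.065. Of the bifunctional enzymes that set the allosteric activator of phosphofructokinase, Pfkfb3 rose by 1.01 ± 0.09 and 1.32 ± 0.093 and Pfkfb4 by 0.34 ± 0.054 and 0.45 ± 0.056, the last being the smallest change of all 37 members in each medium. Slc2a3, the high-affinity glucose transporter, was barely present, with 44 counts over 4 libraries at 28 h and 9 at 16 h in CM, and 38 and 10 in control medium.

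Hif1a, the oxygen-regulated subunit itself, had 378, 377, 369 and 349 CPM at 28 h in CM, against 231, 219.9, 233 and 223 CPM at 16 h. In control medium it had 438, 438, 450.1 and 412 CPM at 28 h, against 274, 243, 245 and 239 CPM at 16 h. Its mRNA rose by 0.70 ± 0.042 log2 units in CM (edgeR adjusted p = 1.4e-13) and 0.80 ± 0.042 in control medium (adjusted p = 1.49e-14). Hif1a is regulated mainly at the level of its protein, which was not measured here.

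**Figure D2:**
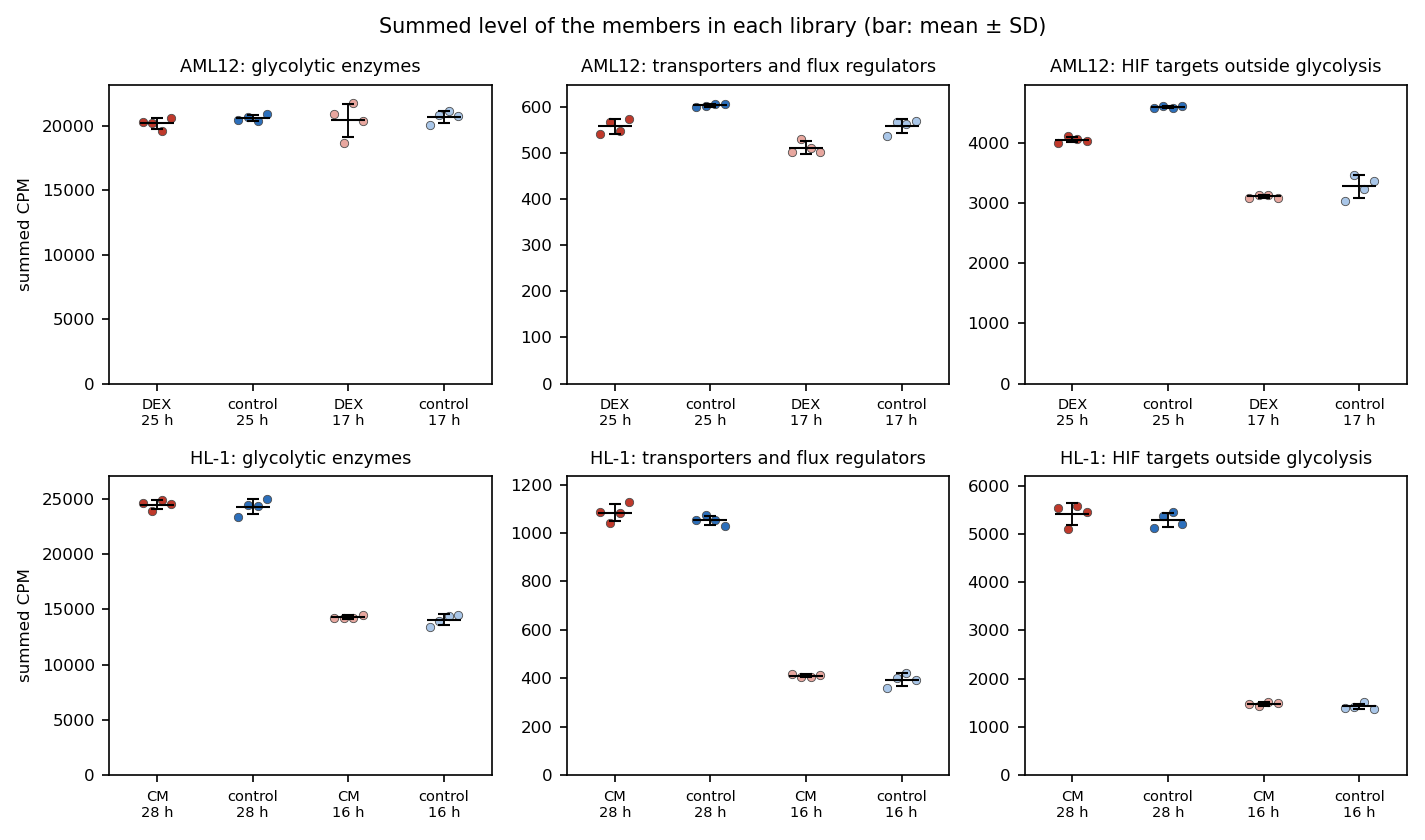
Summed CPM (vertical axes, from 0) of the glycolytic enzymes, of the transporters and flux regulators and of the HIF targets outside glycolysis in each library, with AML12 above and HL-1 below. Points are libraries and bars the mean ± SD of 4; in HL-1 the HIF targets sum to 5093 to 5583 CPM at 28 h in CM and 1424 to 1514 CPM at 16 h in CM, while in AML12 the enzyme sums of the 4 groups overlap.

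Of 60 further genes of glycolysis, pyruvate metabolism, gluconeogenesis and the HIF system, 48 were tested in HL-1. Between 16 h and 28 h, 32 rose and 9 fell in CM, and 31 rose and 9 fell in control medium. Of all genes, 32.6% rose and 32.9% fell in CM, and 31.5% rose and 31.3% fell in control medium. The further HIF targets moved most often one way, with 17 of 20 rising and 2 falling in each medium. Lox, which crosslinks collagen, rose by 1.87 ± 0.036 log2 units in CM and 1.54 ± 0.035 in control medium, and Bnip3l, a relative of Bnip3, by 1.57 ± 0.033 and 1.48 ± 0.033. Among the isozymes and side branches of glycolysis 3 of 7 rose and 3 fell in CM, and 4 rose and 3 fell in control medium.

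Markers of cell type also differed between the times. The 7 fibroblast and mesenchymal markers, of which 1 (Lum) averaged under 1 CPM, summed to 8871 to 9938 CPM at 28 h in CM, against 7762 to 8444 CPM at 16 h, and to 9467 to 9998 CPM at 28 h in control medium, against 7567 to 8842 CPM at 16 h. The 12 cardiomyocyte markers, of which 9 averaged under 1 CPM in each group and Pln was at 0, summed to 1078 to 1164 CPM at 28 h in CM, against 884 to 933 CPM at 16 h, and to 1135 to 1191 CPM at 28 h in control medium, against 885 to 932 CPM at 16 h. Their part in the rise of the members was not tested. Without HL-1 control 16 h replicate 3, the library that stood apart, 37 members still rose in control medium.

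Whether the conditioned medium itself shifted these genes was addressed at each time, and few members differed. At 16 h, 2 of the 37 members were higher in CM than in control medium and 0 lower, where 0.83% of all genes were higher and 1.2% lower. Eno2 had 37.4, 37.8, 41.7 and 38.3 CPM in CM, against 29.0, 30.6, 35.0 and 30.3 CPM in control medium, and was 0.32 ± 0.071 log2 units higher (edgeR adjusted p = 0.0131). P4ha2 had 69.6, 71.1, 70.7 and 72.9 CPM in CM, against 57.5, 62.1, 68.3 and 60.2 CPM in control medium, and was 0.20 ± 0.05 log2 units higher (edgeR adjusted p = 0.0363). For both genes the lowest CM library stood above the highest control library. Neither call held under every alternative. Eno2 had adjusted p = 0.0612 without CM replicate 3, 0.0530 without control replicate 4 and 0.0508 without control replicate 2. P4ha2 lost its call in 7 of the 8 fits that leave out a library, with adjusted p up to 0.134 (without control replicate 1). No member was called lower by edgeR, but 2 had an unadjusted p under 0.05 in that direction and DESeq2 called 1.

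The 4 genes given in every treated comparison had the following levels at 16 h. Hif1a had 231, 219.9, 233 and 223 CPM in CM, against 274, 243, 245 and 239 CPM in control medium, a difference of -0.14 with a 95% interval of -0.23 to -0.056 and an adjusted p of 0.0881 (edgeR). Slc2a1 had 121, 118, 114 and 124 CPM in CM, against 108, 122, 132 and 119 CPM in control medium, with an interval of -0.11 to 0.087 log2 units for the difference. Neither passed the threshold, although all 4 CM libraries of Hif1a lay below all 4 control libraries. Ldha had 1840.3, 1813, 1834 and 1843 CPM in CM, against 1894, 1839, 1895 and 1940.3 CPM in control medium (interval -0.11 to 0.018). Vegfa had 214, 215, 218 and 218 CPM in CM, against 199, 210.1, 214 and 194 CPM in control medium (interval -0.028 to 0.20). The Ldha libraries overlapped between media, while each Vegfa library of CM lay just above the highest control library. The fitted differences of the other members ran from -1.10 for Adm to 0.43 for Ankrd37, both genes of few counts.

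At 28 h, 0 members were higher in CM and 1 was lower, where 0.706% of all genes were higher and 1.22% lower. The member that fell was Hif1a, with 378, 377, 369 and 349 CPM in CM, against 438, 438, 450.1 and 412 CPM in control medium. All 4 CM libraries lay below all 4 control libraries, and the log2 fold change was -0.24 ± 0.041 (edgeR adjusted p = 0.00112). This call held under every alternative run, including each fit without 1 library. Slc2a1 had 312, 303, 317 and 328 CPM in CM, against 321, 326, 327 and 311 CPM in control medium (interval -0.12 to 0.061). Ldha had 3085, 3068, 3029.7 and 2900.4 CPM in CM, against 3034, 3101, 3031 and 3141 CPM in control medium (interval -0.091 to 0.038). The libraries of both genes overlapped between media. Vegfa had 512, 486, 576 and 620.3 CPM in CM, against 495, 518, 539 and 506 CPM in control medium (interval -0.016 to 0.20), with CM libraries on either side of the control range. No member was called higher by edgeR or DESeq2, with 3 members at an unadjusted p under 0.05 in that direction. For the other uncalled members the fitted differences lay between -0.16 (Adm) and 0.17 (Eno2), and for Ero1a, Ndrg1 and Bnip3 the 95% intervals were -0.089 to 0.11, -0.10 to 0.079 and -0.033 to 0.17 log2 units.

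The rise with time did not differ detectably between media. The CM effect at 28 h minus the CM effect at 16 h was called for 0 members in either direction, where 0.104% of all genes were called above 0 and 0.173% below. At an unadjusted p under 0.05 there were 0 members above and 2 below, and DESeq2 called 0. For the 33 members with at least 100 summed counts in each group, the fitted difference in log2 fold change ran from -0.31 to 0.11. Among the further pathway genes Lox was called, with a CM effect 0.33 ± 0.049 log2 units larger at 28 h than at 16 h (edgeR adjusted p = 0.00044). At 16 h, 3 further pathway genes of 48 differed between media, among them Pdk4, another kinase of pyruvate dehydrogenase known to rise with fasting, at 0.28 ± 0.056 and Pdp1, the opposing phosphatase, at -0.23 ± 0.062. At 28 h, 4 differed: Lox at 0.22 ± 0.034, the lactate and pyruvate transporter Slc16a1 at -0.16 ± 0.033, Angptl4, an inhibitor of lipoprotein lipase, at -0.30 ± 0.068, and Pdk4 at 0.24 ± 0.054. Of all genes, 0.83% were higher and 1.2% lower in CM at 16 h, and 0.706% higher and 1.22% lower at 28 h.

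Bile duct and progenitor markers differed between media at both times. The 5 markers, of which 2 averaged under 1 CPM and Epcam was at 0, summed to 1941 to 2082 CPM in CM at 16 h, against 2521 to 2732 CPM in control medium, and to 1953 to 2196 CPM in CM at 28 h, against 2319 to 2410.3 CPM in control medium. Spp1 alone averaged 2055 CPM over the 16 libraries. The fibroblast and mesenchymal sums given above overlapped between media at each time. The part of these markers in the members' differences was not tested.

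**Figure D3:**
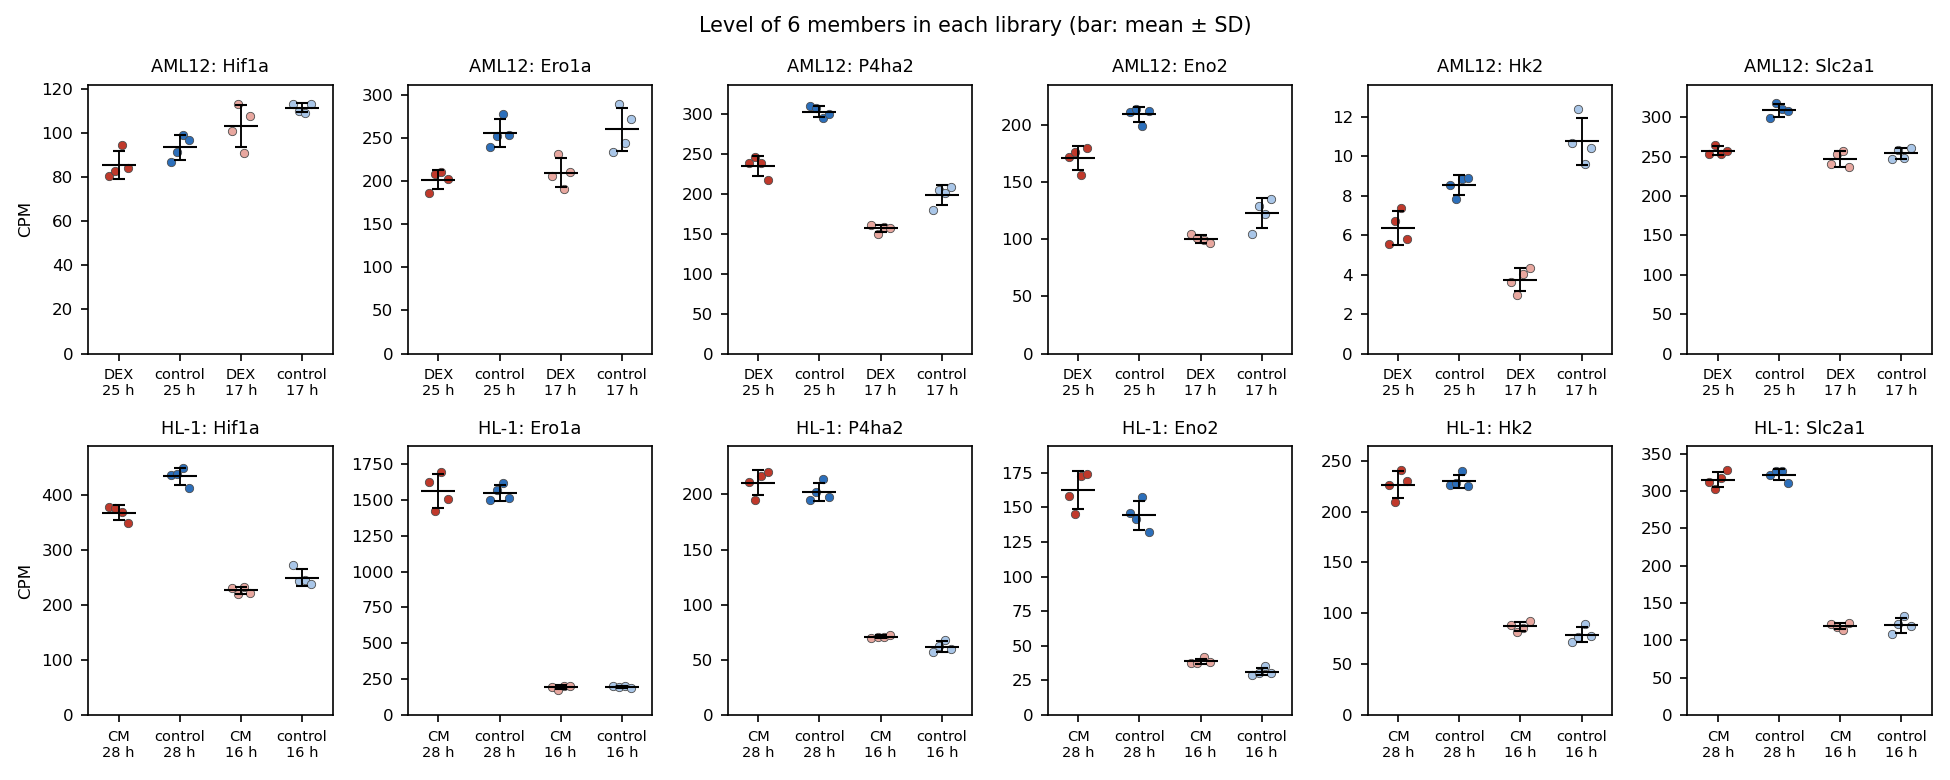
CPM (vertical axes, from 0) of 6 members in each library, with AML12 above and HL-1 below, and groups on the horizontal axes. Points are libraries and bars the mean ± SD of 4; in HL-1, Hif1a at 28 h lies between 349 and 378 CPM in CM and between 412 and 450 CPM in control medium, and in AML12, Hk2 at 17 h lies between 2.98 and 4.32 CPM with DEX and between 9.59 and 12.4 CPM without it.

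In AML12 cells more members were lower than higher with DEX, by small amounts apart from Hk2. At 17 h, 4 of 37 members rose and 11 fell, where 20.5% of all genes rose and 17.9% fell. With total counts as the scale 2 members rose and 11 fell, and 43.8% of the genes called were higher, against 53.4% with TMM. At 25 h, 0 rose and 13 fell, where 6.79% of all genes rose and 4.96% fell. No member was higher at 25 h at an unadjusted p under 0.05 or by DESeq2. The median log2 fold change of the members was -0.031 at 17 h and -0.11 at 25 h, against 0.0044 and 0.0018 for all tested genes. The 7 members that fell at both times, in comparisons that share no library, were Hk2, Eno2, Ero1a, P4ha2, Kdm3a, Ankrd37 and Egln1. The share of all genes that fell at both times was not counted.

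**Figure D4:**
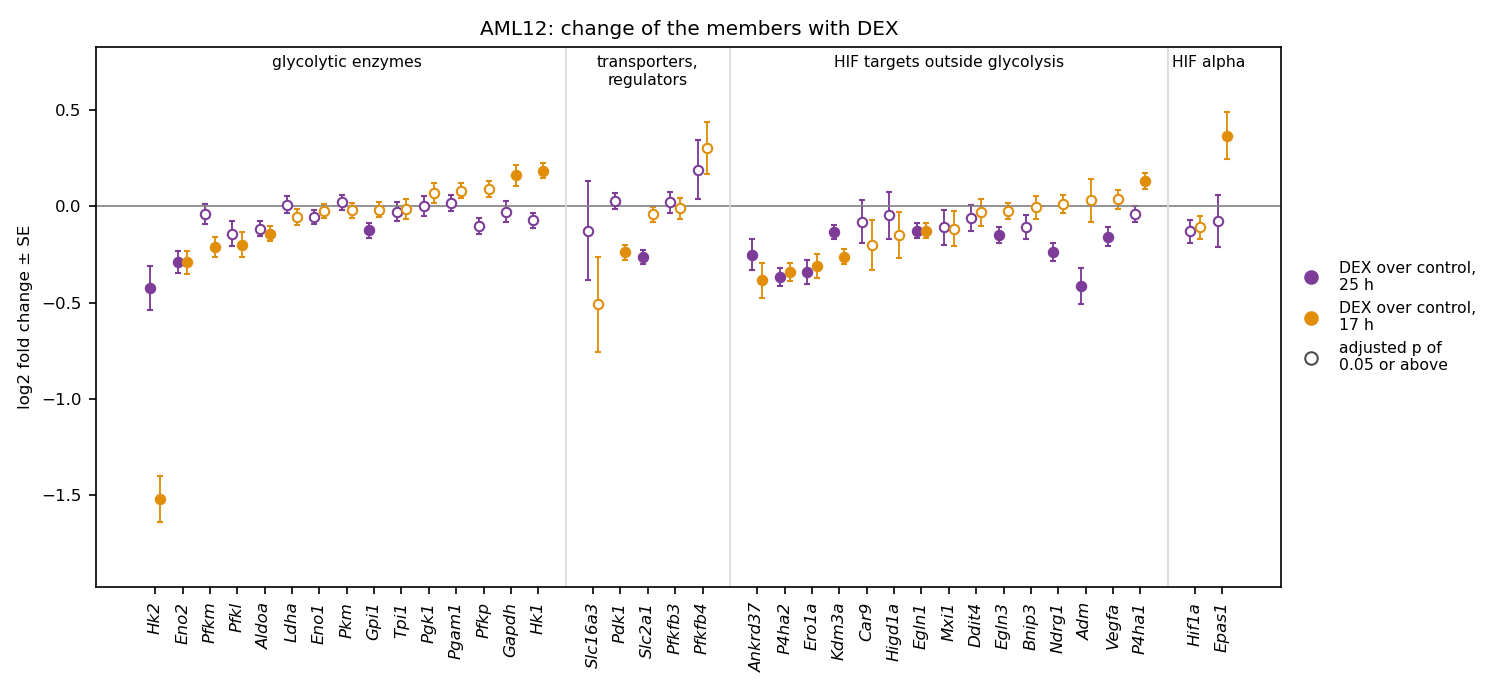
Change of the 37 tested members in AML12 cells with DEX, as log2 fold change over control ± SE (vertical axis) per gene (horizontal axis, ordered within each class by the change at 17 h). Purple points are 25 h and orange points 17 h, from 4 libraries per group, and open points did not pass the adjusted p threshold; Hk2 stands apart at -1.52 at 17 h.

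Hk2, the hexokinase isoform of muscle and growing cells, changed most at 17 h. It had 3.63, 2.98, 4.03 and 4.32 CPM with DEX, against 10.7, 12.4, 9.59 and 10.4 CPM in control cells, over 243 and 704 summed counts. The groups did not overlap, and the log2 fold change was -1.52 ± 0.12 (edgeR adjusted p = 2.58e-10). Hk1, the isoform found in most tissues, had 576, 554, 606 and 545 CPM with DEX, against 494, 521, 493 and 497 CPM in control cells. It rose by 0.19 ± 0.039 (edgeR adjusted p = 0.000503), again with no overlap. The 2 hexokinases thus moved in opposite directions at 17 h, but per kilobase of exon Hk2 stood at 0.626 CPM with DEX, against 1.8 in control cells, and Hk1 at 66.8 and 58.7.

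Further down the pathway, Pfkm had 187, 151, 191 and 177 CPM with DEX, against 202, 208, 205 and 203 CPM in control cells, at -0.21 ± 0.051 (edgeR adjusted p = 0.00172). Aldoa had 1956, 1772, 2024 and 1943 CPM with DEX, against 2029, 2137, 2131 and 2189.8 CPM in control cells, at -0.14 ± 0.04 (edgeR adjusted p = 0.00615). Neither gene's groups overlapped, and replicate 2 of DEX, the library that stood apart, was the lowest for both. Eno2 had 105, 101, 99.7 and 96.6 CPM with DEX, against 105, 129, 122 and 136 CPM in control cells, at -0.29 ± 0.06 (edgeR adjusted p = 0.000359), and its highest DEX library reached the lowest control library. Pfkl stood at -0.20 ± 0.067 and Gapdh rose by 0.16 ± 0.055. The other 8 enzymes did not pass, and Ldha had 2578, 2246, 2671 and 2525 CPM with DEX, against 2553, 2615, 2673 and 2561 CPM in control cells (interval -0.14 to 0.034 log2 units), with overlapping groups. The summed level of the enzymes was 20405 ± 1289.6 CPM with DEX and 20687 ± 449 CPM in control cells (SD, n = 4 each), a difference within the spread.

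Among transporters and regulators at 17 h, Pdk1 was the only member called of 5 tested, where 20.5% of all genes rose and 17.9% fell. It had 219, 237, 216 and 227 CPM with DEX, against 253, 269, 272 and 266 CPM in control cells, and a log2 fold change of -0.24 ± 0.041 (edgeR adjusted p = 4e-05). Each DEX library lay below each control library. Slc2a1 had 241, 253, 257 and 237 CPM with DEX, against 247, 259, 249 and 262 CPM in control cells, with an interval of -0.12 to 0.038 log2 units and overlapping groups. Slc16a3 was close to absent from AML12, at 0.726 ± 0.197 CPM with DEX and 1.03 ± 0.203 CPM in control cells (SD, n = 4 each).

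Of the 15 HIF targets outside glycolysis, 1 rose and 5 fell at 17 h, where 20.5% of all genes rose and 17.9% fell. P4ha2 had 160.2, 149.6, 159 and 157 CPM with DEX, against 179, 204, 200.2 and 208 CPM in control cells, at -0.34 ± 0.047 (edgeR adjusted p = 2.29e-06). Kdm3a had 163, 177, 165 and 171 CPM with DEX, against 196, 204, 205 and 207 CPM in control cells, at -0.26 ± 0.037 (edgeR adjusted p = 3.96e-06). Neither overlapped between groups. Ero1a had 206, 231, 191 and 211 CPM with DEX, against 234, 289, 244 and 272 CPM in control cells, at -0.31 ± 0.063 (edgeR adjusted p = 0.000369), with the highest DEX library just under the lowest control library. Ankrd37 had 10.6, 11.2, 9.52 and 11.7 CPM with DEX, against 11.2, 15.7, 13.8 and 15.3 CPM in control cells, at -0.38 ± 0.093 (edgeR adjusted p = 0.00177), and its groups overlapped. Egln1 was at -0.13 ± 0.039, and P4ha1 rose by 0.13 ± 0.043. Vegfa had 152, 164, 154 and 152 CPM with DEX, against 137, 157, 147 and 166 CPM in control cells (interval -0.065 to 0.14 log2 units), with control libraries on both sides of the DEX range.

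The fitted changes of the members that did not pass at 17 h ran from -0.51 (Slc16a3) to 0.31 (Pfkfb4), both genes of low counts. Of the alpha subunits at 17 h, Hif1a had 101, 113, 90.9 and 108 CPM with DEX, against 113, 110.0, 109 and 113 CPM in control cells, with an interval of -0.23 to 0.011 log2 units, an adjusted p of 0.145 (edgeR) and overlapping groups. Epas1, which encodes the alpha subunit prominent in endothelium and liver, averaged 5.54 ± 0.454 CPM with DEX and 4.29 ± 0.137 CPM in control cells (SD, n = 4 each) and rose by 0.37 ± 0.12. Of the 15 calls at 17 h, 5 were lost under at least 1 alternative: Epas1 had adjusted p = 0.0612 without DEX replicate 2, Egln1 0.0523 without control replicate 2, Pfkl 0.0559 without control replicate 3, Gapdh 0.099 and P4ha1 0.0725 without control replicate 1. Gapdh also had 0.0800 without DEX replicate 2, and P4ha1 0.0691 without DEX replicate 4. Pfkl had 0.0685 with the compared libraries only, and P4ha1 0.0920 with total counts as the scale (edgeR). Without DEX replicate 2, 6 members rose and 13 fell.

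The falls at 25 h lay mostly among HIF targets, with 9 of the 15 called, where 4.96% of all genes fell. P4ha2 had 238, 246, 238 and 217 CPM with DEX, against 309, 306, 295 and 299 CPM in control cells, at -0.37 ± 0.046 (edgeR adjusted p = 3.18e-06). Ero1a had 186, 209, 210.1 and 202 CPM with DEX, against 239, 252, 278 and 254 CPM in control cells, at -0.34 ± 0.063 (edgeR adjusted p = 0.000513). Ndrg1 had 1229, 1335, 1273 and 1287 CPM with DEX, against 1506, 1569, 1438 and 1532 CPM in control cells, at -0.24 ± 0.047 (edgeR adjusted p = 0.00105). For these 3 genes every DEX library was below every control library. Adm had 17.4, 18.6, 19.9 and 19.6 CPM with DEX, against 23.5, 24.9, 27.7 and 24.2 CPM in control cells, at -0.41 ± 0.093 (edgeR adjusted p = 0.00329). Kdm3a had 241, 244, 252 and 239 CPM with DEX, against 267, 265, 275 and 263 CPM in control cells, at -0.13 ± 0.037 (edgeR adjusted p = 0.0176). Egln3 had 512, 516, 509 and 517 CPM with DEX, against 559, 574, 564 and 579 CPM in control cells, at -0.15 ± 0.043 (edgeR adjusted p = 0.0233). The groups of these genes did not overlap either. Vegfa had 180.3, 182, 169.6 and 184 CPM with DEX, against 195, 197, 209.9 and 196 CPM in control cells, at -0.16 ± 0.048, and Egln1 and Ankrd37 stood at -0.13 ± 0.039 and -0.25 ± 0.08. The 15 targets together had 4010.3, 4121, 4079 and 4037 CPM with DEX, against 4592, 4617, 4583 and 4612 CPM in control cells, a ratio of means of 0.883.

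Slc2a1 was the called member of the transporters and regulators at 25 h, with 253, 265, 253 and 258 CPM with DEX, against 299, 318, 311 and 308 CPM in control cells. The log2 fold change was -0.26 ± 0.038 (edgeR adjusted p = 2.38e-05) with no overlap. Of the 15 enzymes 3 fell, where 4.96% of all genes fell. Eno2 had 172, 176, 156 and 180.2 CPM with DEX, against 212, 214, 199 and 212 CPM in control cells, at -0.29 ± 0.057 (edgeR adjusted p = 0.00099). Hk2 had 5.57, 6.70, 7.39 and 5.80 CPM with DEX, against 8.56, 7.83, 8.86 and 8.91 CPM in control cells, at -0.42 ± 0.11 (edgeR adjusted p = 0.0124). Gpi1 had 817, 843, 793 and 846 CPM with DEX, against 898, 923, 872 and 905 CPM in control cells, at -0.12 ± 0.038 (edgeR adjusted p = 0.0339). In all 3 the highest DEX library lay below the lowest control library. Ldha had 2424, 2440.0, 2358 and 2473 CPM with DEX, against 2427, 2372, 2349.9 and 2484 CPM in control cells (interval -0.079 to 0.10 log2 units), and Hif1a had 80.3, 82.7, 94.4 and 84.2 CPM with DEX, against 86.6, 91.2, 98.9 and 96.6 CPM in control cells (interval -0.25 to -0.0072, edgeR adjusted p = 0.18). Both overlapped between groups. The members that did not pass at 25 h ran from -0.14 (Pfkl) to 0.19 (Pfkfb4).

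Of the 13 calls at 25 h, 7 were lost under at least 1 alternative. Hk2 had adjusted p = 0.0558 without DEX replicate 4 and 0.0520 without DEX replicate 1, Vegfa 0.108 without control replicate 3 and 0.102 without DEX replicate 3, Kdm3a 0.0528 without control replicate 3 and Egln3 0.0504 without control replicate 4, while Ankrd37, Gpi1 and Egln1 were lost in 7, 5 and 4 of the 8 fits without 1 library. The calls of P4ha2, Slc2a1, Ero1a, Eno2, Ndrg1 and Adm held in all of them. With no low-count filter, Kdm3a, Gpi1 and Egln1 had adjusted p of 0.0710, 0.0847 and 0.0924 (edgeR).

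Cell type markers differed with DEX as well. The 10 hepatocyte markers, of which 5 averaged under 1 CPM or were not listed in the DEX group, summed to 281 to 295 CPM with DEX at 17 h, against 383 to 420 CPM in control cells with 6 such markers. At 25 h the sums were 387 to 411 CPM with DEX and 368 to 405 CPM in control cells. The 5 bile duct and progenitor markers, of which Epcam was not listed, summed to 3864 to 4111 CPM with DEX at 25 h, against 4256 to 4489 CPM in control cells, without overlap, and to 3343 to 3544 CPM with DEX at 17 h, against 3438 to 3628 CPM in control cells. The 7 fibroblast and mesenchymal markers, of which 5 averaged under 1 CPM or were not listed, summed to 2371 to 2534 CPM with DEX at 25 h, against 2182 to 2316 CPM in control cells, again without overlap, and to 2342 to 2556 CPM with DEX at 17 h, against 2276 to 2394 CPM in control cells. Nearly all of this sum was Vim, which averaged 2377 CPM over the 16 libraries, against 3.99 CPM for Col1a1, the next highest. The part of these differences in the members' changes was not tested.

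The DEX effect itself changed between the times for 8 members. The effect at 25 h minus the effect at 17 h was above 0 for 2 members and below 0 for 6, where 7.91% of all genes lay above and 8.27% below (edgeR). With total counts as the scale 4 members lay above and 3 below, and 62.2% of the genes called lay above, against 48.9% with TMM. Hk2 had the largest difference, 1.09 ± 0.17 (adjusted p = 3.01e-05), its fold change being -0.42 at 25 h and -1.52 at 17 h. Pdk1 differed by 0.27 ± 0.057 (edgeR adjusted p = 0.00166), with 0.028 at 25 h and -0.24 at 17 h. Below 0 stood Hk1 at -0.26 ± 0.056, Ndrg1 at -0.25 ± 0.067, Slc2a1 at -0.22 ± 0.054, Pfkp at -0.19 ± 0.058, Adm at -0.44 ± 0.15 and P4ha1 at -0.17 ± 0.059. The calls of Pfkp, Adm and P4ha1 were lost in 6, 8 and 13 of the 16 fits without 1 library.

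Of the 60 further pathway genes, 48 were tested in AML12. With DEX 13 rose and 15 fell at 17 h, and 3 rose and 9 fell at 25 h. Of all genes, 20.5% rose and 17.9% fell at 17 h, and 6.79% rose and 4.96% fell at 25 h. At 17 h, Hif3a, which encodes an alpha subunit whose short forms inhibit HIF, rose by 1.19 ± 0.079 and Pck2, the mitochondrial PEP carboxykinase, by 0.51 ± 0.056. Pklr, the pyruvate kinase of liver and red cells, stood at -0.56 ± 0.037 and Hmox1, the haem-degrading oxygenase, at -0.54 ± 0.05. Among those that fell at 25 h were Pklr at -0.23 ± 0.037, the histone demethylase Kdm4b at -0.21 ± 0.042 and Hmox1 at -0.25 ± 0.051. The DEX effect at 25 h minus that at 17 h put 5 of the 48 above 0 and 6 below, with Hif3a at -1.05 ± 0.11. By this difference 7.91% of all genes lay above 0 and 8.27% below. Of the 18 further HIF targets tested, 2 rose and 8 fell at 17 h, and 0 rose and 8 fell at 25 h.

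AML12 cells also changed with time, and the HIF targets outside glycolysis led. Between 17 h and 25 h, 17 members rose and 6 fell with DEX, where 27.8% of all genes rose and 28.2% fell. In control cells 18 members rose and 5 fell, where 22.1% of all genes rose and 21.4% fell. With total counts as the scale, 16 members rose and 7 fell in control cells, and 39.5% of the genes called were higher, against 50.8% with TMM. Of the 15 HIF targets outside glycolysis 11 rose and 0 fell in each arm, with a median log2 fold change of 0.46 with DEX and 0.40 in control cells. The 15 glycolytic enzymes split, with 4 rising and 3 falling with DEX and 5 rising and 3 falling in control cells, and their summed level was 20176 ± 413 CPM at 25 h and 20405 ± 1289.6 CPM at 17 h with DEX, and 20601 ± 253 CPM at 25 h and 20687 ± 449 CPM at 17 h in control cells (SD, n = 4 each). The 2 arms share no library with each other, though each shares its libraries with the comparisons of DEX with control, and 14 members rose and 3 fell in both. The share of all genes called the same way in both arms was not counted.

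**Figure D5:**
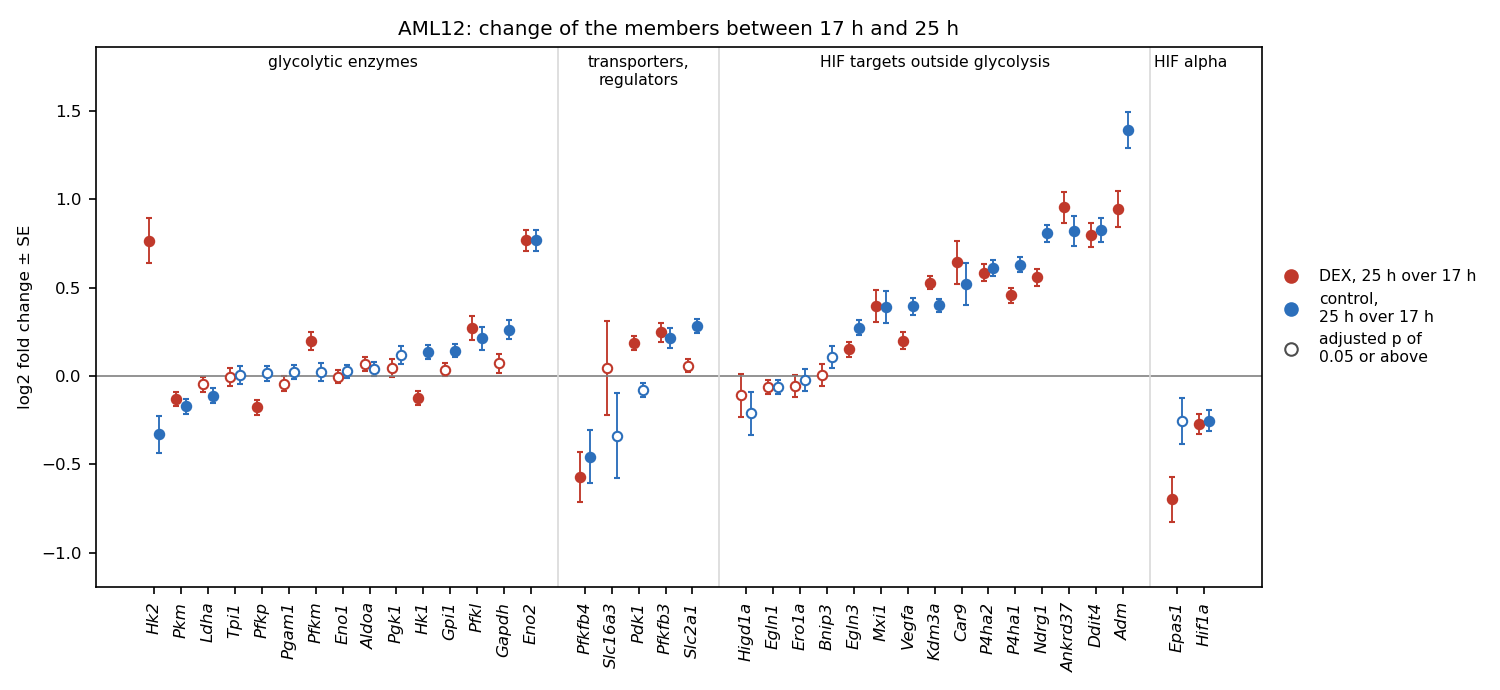
Change of the 37 tested members in AML12 cells between 17 h and 25 h, as log2 fold change ± SE (vertical axis) per gene (horizontal axis, ordered within each class). Red points are DEX and blue points control cells, from 4 libraries per group, and open points did not pass the adjusted p threshold; the HIF targets reach 0.95 with DEX and 1.39 in control cells, and Hk2 has opposite signs in the 2 arms.

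Ndrg1 had 1229, 1335, 1273 and 1287 CPM at 25 h with DEX, against 890.1, 835, 911 and 847 CPM at 17 h. In control cells it had 1506, 1569, 1438 and 1532 CPM at 25 h, against 779, 935, 859 and 880.0 CPM at 17 h. It rose by 0.56 ± 0.048 with DEX (edgeR adjusted p = 6.52e-10) and 0.81 ± 0.048 in control cells (adjusted p = 7.22e-12), with the times apart in both arms. P4ha2 had 238, 246, 238 and 217 CPM at 25 h with DEX, against 160.2, 149.6, 159 and 157 CPM at 17 h. Control cells had 309, 306, 295 and 299 CPM of P4ha2 at 25 h, against 179, 204, 200.2 and 208 CPM at 17 h. The rises were 0.58 ± 0.046 with DEX (edgeR adjusted p = 1.73e-10) and 0.61 ± 0.046 in control cells (adjusted p = 2.96e-10). P4ha1 rose by 0.46 ± 0.042 with DEX and 0.63 ± 0.042 in control cells, and Ddit4 by 0.80 ± 0.068 and 0.82 ± 0.068.

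Adm had 17.4, 18.6, 19.9 and 19.6 CPM at 25 h with DEX, against 9.07, 11.0, 11.0 and 8.02 CPM at 17 h. In control cells Adm had 23.5, 24.9, 27.7 and 24.2 CPM at 25 h, against 7.38, 10.9, 10.2 and 9.83 CPM at 17 h. It was the member with the largest rise in control cells, 1.39 ± 0.10 (edgeR adjusted p = 1.82e-10), and rose by 0.94 ± 0.10 with DEX. Eno2 had 172, 176, 156 and 180.2 CPM at 25 h with DEX, against 105, 101, 99.7 and 96.6 CPM at 17 h. Its control libraries had 212, 214, 199 and 212 CPM at 25 h, against 105, 129, 122 and 136 CPM at 17 h. Eno2 was the glycolytic enzyme that rose most in each arm, by 0.77 ± 0.059 with DEX and 0.77 ± 0.058 in control cells. Kdm3a rose by 0.53 ± 0.037 with DEX and 0.40 ± 0.037 in control cells, and Ankrd37 by 0.95 ± 0.088 and 0.82 ± 0.084.

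The members that fell in both arms were Hif1a, Pkm and Pfkfb4. Hif1a stood at -0.27 ± 0.059 with DEX and -0.25 ± 0.058 in control cells, Pkm at -0.13 ± 0.041 and -0.17 ± 0.041, and Pfkfb4 at -0.57 ± 0.14 and -0.46 ± 0.15. Hk2 and Hk1 went opposite ways in the 2 arms: Hk2 was at 0.76 ± 0.13 with DEX and -0.33 ± 0.10 in control cells, and Hk1 at -0.13 ± 0.039 with DEX and 0.13 ± 0.039 in control cells. Epas1 fell with DEX, at -0.70 ± 0.13, and Ldha fell in control cells, at -0.11 ± 0.043. In control cells 5 of the 23 calls were lost under at least 1 alternative, namely Hk2 (adjusted p = 0.0643 without 17 h replicate 2), Pfkfb4 (0.0677 without 17 h replicate 3 and 0.0542 without replicate 2), Pfkl (0.0552 without 25 h replicate 2), Hk1 (0.0689 with total counts as the scale) and Ldha, which was lost in 6 of the 8 fits without 1 library. With DEX the call lost was Pkm (0.0663 with the compared libraries only and 0.0504 without 17 h replicate 3). Without 17 h replicate 2 of DEX, the library apart, 19 members rose and 9 fell.

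Cell type markers differed between the times too. The bile duct and progenitor markers summed to 3864 to 4111 CPM at 25 h, against 3343 to 3544 CPM at 17 h, with DEX, and to 4256 to 4489 CPM at 25 h, against 3438 to 3628 CPM at 17 h, in control cells. The hepatocyte markers summed to 387 to 411 CPM at 25 h, against 281 to 295 CPM at 17 h, with DEX, and to 368 to 405 CPM at 25 h, against 383 to 420.2 CPM at 17 h, in control cells. The times did not overlap in these sums apart from the hepatocyte markers in control cells, and the part of the markers in the members' changes was not tested.

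Of the 48 further pathway genes tested, 11 rose and 17 fell between 17 h and 25 h with DEX, and 15 rose and 12 fell in control cells. Of all genes, 27.8% rose and 28.2% fell with DEX, and 22.1% rose and 21.4% fell in control cells. Loxl2, a relative of Lox, rose by 0.66 ± 0.044 with DEX and 0.65 ± 0.043 in control cells. Angptl4 rose by 0.86 ± 0.057 with DEX, and Bpgm, which makes the red cell regulator of haemoglobin from a glycolytic intermediate, stood at -0.88 ± 0.054 in control cells. Of the 18 further HIF targets 9 rose and 1 fell with DEX, and 12 rose and 1 fell in control cells.

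The 2 tables were made separately and the hours differ between lines, so no test was made across them. Every tested member rose with time in HL-1 control medium. The 18 members that rose with time in AML12 control cells therefore rose in HL-1 by necessity, and this overlap does not compare the 2 lines. The 5 that fell with time in AML12 control cells were Hif1a, Hk2, Ldha, Pfkfb4 and Pkm, and they rose in HL-1 like every other tested member. Levels per kilobase of exon, averaged over the 16 libraries of a line, placed Pgk1, Pkm, Aldoa, Ldha, Pgam1 and Tpi1 between 708 and 1168 CPM per kilobase in AML12, and Pgk1, Gapdh, Ldha and Pkm between 713 and 996 in HL-1. Gapdh had 31.6 CPM per kilobase in AML12 and 742 in HL-1. Gapdh has many near-identical pseudogenes, so its counts in both tables depend on how reads with several matches were handled and are uncertain. Whether this bears on the difference between the lines was not tested. Hk2 averaged 1.23 CPM per kilobase in AML12 and 26.1 in HL-1, Slc16a3 0.16 and 33.3, Pfkfb4 0.84 and 6.98, and Epas1 0.75 and 0.06.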

How the data were processed

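The data are whole-number read counts per gene that the authors deposited as 1 table per cell line, 16 libraries each, with no normalisation. Per the labels' protocols, libraries were made from TRIzol-extracted total RNA with the NEBNext Ultra II kit. Per the submitters' processing notes, FastQC 0.11.8 and STAR were used with mm10 (GRCm38); the sources used here do not give the counting tool, strand setting or annotation. The tables were normalised and tested separately. In the HL-1 table the CM columns carry the treatment's abbreviation in their names, and the samples' descriptions tie them to the CM titles. Of its 55414 genes, 23808 had no count.

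Counts were filtered with edgeR's filterByExpr by group, scaled with TMM and fitted with edgeR 4.0.16 (R 4.3.3), with a mean for each group across the line's 16 libraries, with the quasi-likelihood test and Benjamini-Hochberg adjustment over all genes tested (threshold 0.05); SE is the log2 fold change divided by the root of F. Alternatives were DESeq2 1.42.0, DESeq2's size-factor method within edgeR, total counts only, no filter, a replicate block, the compared libraries only, thinning to the lowest total and leaving out each library. The fit was also run on simulated counts with the same relative spread for every gene and a small set of genes changed in a single group. That setting is simpler than these data, so the run does not bear on the calls reported here. Exon lengths and positions came from GENCODE annotation of GRCm38. The lowest sum of counts of a tested member over the 4 libraries of a group was 9 (Slc2a3 in HL-1).

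The members and lists were chosen with earlier results of these data known. Values of every library are given for Hif1a, Slc2a1, Ldha, Vegfa and up to 10 called members with the smallest p in treated against control comparisons, and up to 6 called members are named in the others; further members named for HL-1 and AML12 with time complete the account of all 38. Of the further pathway genes up to 4 with the smallest p are named per treated comparison and up to 2 elsewhere; the values of some genes under this rule are not reported here, while the counts include them. The second Aldoa row (ENSMUSG00000114515), which lies just upstream of the enzyme's gene, was kept out of the counts of members, though its groups are among the 308 examined for a library apart.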

Additional observations from a re-analysis of the deposited data

Results flagged for a closer look

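The spread of each member, and of the second Aldoa row, over the 4 libraries of each group was examined by Dixon's ratio, the gap between an extreme library and its nearest neighbour divided by the range, in 308 groups. In 22 of them, or 7.14%, the ratio passed the 95% critical value for 4 samples, where chance gives about 5% (1 in 20). In AML12 DEX 17 h, replicate 2 was lowest for Pgk1 (0.837) and Higd1a (0.836) and highest for Egln1 (0.838). In AML12 control 17 h, replicate 2 was highest for Hk1 (0.855), Car9 (0.877) and the second Aldoa row, ENSMUSG00000114515 (0.90), replicate 1 was lowest for Gapdh (0.891) and replicate 3 highest for Eno1 (0.923). In AML12 DEX 25 h, replicate 4 was highest for Pgk1 (0.844), replicate 2 lowest for Bnip3 (0.847) and replicate 1 highest for Epas1 (0.955). In AML12 control 25 h, replicate 3 was lowest for Eno2 (0.853) and highest for Vegfa (0.929).

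In HL-1 CM 28 h, replicate 4 was highest for Pfkl (0.983) and Slc16a3 (0.846) and replicate 2 lowest for Tpi1 (0.87). In HL-1 control 28 h, replicate 1 was lowest for Gapdh (0.861), replicate 2 highest for Pdk1 (0.831) and replicate 4 lowest for Pfkfb4 (0.941). In HL-1 CM 16 h, replicate 2 was lowest for Ndrg1 (0.851) and Ero1a (0.858). In HL-1 control 16 h, replicate 1 was highest for Hif1a (0.831).

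The DEX effect in AML12 differed between 25 h and 17 h by edgeR's test of the difference itself for 8 members and for the second Aldoa row. The effect at 25 h minus that at 17 h was 1.09 for Hk2 and 0.27 for Pdk1 on the log2 scale. It was -0.26 for Hk1, -0.25 for Ndrg1, -0.22 for Slc2a1, -0.19 for Pfkp, -0.17 for P4ha1, -0.44 for Adm and -0.76 for ENSMUSG00000114515, which averaged 2.78 ± 0.410 CPM with DEX and 1.37 ± 0.166 CPM in control cells at 17 h (SD, n = 4 each).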

How the results depend on the processing

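The rise of all 37 tested members in HL-1 between 16 h and 28 h was found in both media under every alternative and without any single library. With total counts as the scale, 2 members were higher with DEX in AML12 at 17 h (4 with TMM), and the change of the DEX effect from 17 h to 25 h was above 0 for 4 (2 with TMM) and below 0 for 3 (6 with TMM). For CM at 16 h, 1 member was higher with the compared libraries only and 1 after thinning (2 with all), and 1 was lower by DESeq2 and 1 with a replicate block (0 without it). For CM at 28 h, 2 were higher with no filter, 1 with a replicate block and 1 with the compared libraries only (0 in the main test). Without the filter the CM effect differed between times for 97 genes (40 with it). The replicate block pairs libraries by number only: deviations from the group means correlated at -0.095 to 0.11 between same-numbered AML12 libraries (-0.12 to 0.10 between others) and at -0.12 to 0.12 in HL-1 (-0.23 to 0.20). It changed no other count of members by more than 1.5 times. Leaving out a library moved the members higher with DEX at 17 h between 2 (control replicate 1) and 6, those below 0 in the difference between times between 3 (DEX 25 h replicate 2, control 17 h replicate 1, control 25 h replicates 2 and 3) and 6, those that fell with time in AML12 control cells between 2 (17 h replicate 2; 3 without 17 h replicate 3) and 5, those higher in CM at 16 h between 0 (CM replicate 3, control replicates 2 and 4) and 3, and those higher in CM at 28 h between 0 and 1 (CM replicate 2, control replicate 3). All genes called for CM ranged from 195 (without CM replicate 4) to 278 at 16 h, against 294 with all, and from 171 (without CM replicate 3; 181 without control replicate 1) to 327 at 28 h, against 278 with all. Of 159 calls of a member in a comparison, 23 were lost under at least 1 alternative; the cause was not tested. No called change turned its direction. Depth limits Adm and Slc2a3 most in HL-1, with 12 and 9 counts over 4 libraries in their lowest groups.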

Other observations

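Against the rise of the members in HL-1, 9 of the 48 further pathway genes tested fell between 16 h and 28 h in CM, 9 fell in control medium, and the 9 were shared. Of all genes, 32.9% fell in CM and 31.3% in control medium. The genes named here were chosen after their values were seen. Tfrc, the transferrin receptor and a textbook HIF target, averaged 96.5 ± 9.01 CPM at 28 h and 326 ± 22.4 CPM at 16 h in CM (SD, n = 4 each), and had a log2 fold change of -1.76 ± 0.058. In control medium it averaged 95.9 ± 3.88 CPM at 28 h and 330.0 ± 20.7 CPM at 16 h (SD, n = 4 each), at -1.78 ± 0.059. Tigar, the phosphatase that lowers the activator of phosphofructokinase, was at -1.49 ± 0.11 in CM and -1.21 ± 0.11 in control medium. The muscle enolase Eno3 was at -0.61 ± 0.036 and -0.55 ± 0.036. Egln2, a prolyl hydroxylase of HIF alpha, was at -0.34 ± 0.085 and -0.31 ± 0.086, and Hif1an, the asparaginyl hydroxylase that blocks HIF activity, at -0.22 ± 0.049 and -0.24 ± 0.05. Of the genes that rose, Car12, a carbonic anhydrase, averaged 11.6 ± 0.846 CPM at 28 h and 0.472 ± 0.0738 CPM at 16 h in CM (SD, n = 4 each) and rose by 4.59 ± 0.18 in CM and 4.32 ± 0.18 in control medium.

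In AML12, Pdk2, a pyruvate dehydrogenase kinase, rose with DEX at 17 h by 0.59 ± 0.074 and did not pass at 25 h, at 0.026 ± 0.071.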
